A study of Mus musculus with 6 samples.

Results

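Imprinted growth genes are the genes of this report: Ndn, Magel2, Mest, Peg3, Igf2, Dlk1 and Plagl1, of which the paternal copy is the active one, and Grb10, H19 and Igf2r, of which the maternal copy is the active one in most tissues. The members were chosen by name, as known imprinted genes, and with earlier results of these data known. Each was read from the probe set annotated with that gene symbol alone. Of these 10 members, 9 had such a probe set, 1 each, among 19938 genes tested. H19, a maternally expressed long non-coding RNA, was not analysed here, so the maternal side rests on 2 genes and the paternal side on 7.

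Gene expression was measured on 6 Affymetrix arrays with total RNA of mouse lung endothelial cells (lECs) of C57BL/6 strain background. The 3 control samples carried an empty pcDNA3.1/Hygro(-) vector, and the 3 L1CAM samples carried the same vector with full-length mouse L1CAM, a cell adhesion molecule best known from neurons; both transfections were stable. All cultures grew to confluence for 4 days on crosslinked gelatin in MCDB131 medium with 20% serum, heparin and a brain-derived endothelial growth supplement, and they differed, per the labels, only in the insert of the vector. The labels call the samples biological replicates of independent experiments, but they name 1 transfectant per group and do not say whether it was a pool or a clone, so differences between transfectants and effects of L1CAM cannot be told apart.

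An imprinted gene is expressed mainly from 1 parental copy, under the control of DNA methylation set in the germ line on the mother's or the father's chromosome, and many such genes act on growth: paternally expressed genes such as Igf2 tend to promote it, and maternally expressed genes such as Igf2r and Grb10 tend to restrain it. IGF2 signals through the IGF1 and insulin receptors, IGF2R takes IGF2 up for degradation, and GRB10 binds the activated receptors and dampens them. Necdin, the product of Ndn, belongs to the MAGE family and is known as a growth suppressor of neurons and of progenitor cells. The arrays measure the RNA of both parental copies together and do not show which copy it came from.

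The members' windows at the transcription start are printed first for the 4 members that changed and for Magel2, the immediate neighbour of Ndn, because CG dinucleotides are the sites of DNA methylation. Each window runs from 250 bases before to 50 bases after a start annotated by RefSeq in GRCm38.p6, and the CG dinucleotides are in capitals. All 9 measured members had windows in that table, 15 in all. Where a gene had several, the window with the most CG dinucleotides is shown, and of equal ones the first by start. Ndn is at chr7:62348027-62348326 on the plus strand, Magel2 at chr7:62376729-62377028 on the plus strand, Mest at chr6:30737800-30738099 on the plus strand, Grb10 at chr11:12037371-12037670 on the minus strand and Igf2r at chr17:12769657-12769956 on the minus strand.
Ndn: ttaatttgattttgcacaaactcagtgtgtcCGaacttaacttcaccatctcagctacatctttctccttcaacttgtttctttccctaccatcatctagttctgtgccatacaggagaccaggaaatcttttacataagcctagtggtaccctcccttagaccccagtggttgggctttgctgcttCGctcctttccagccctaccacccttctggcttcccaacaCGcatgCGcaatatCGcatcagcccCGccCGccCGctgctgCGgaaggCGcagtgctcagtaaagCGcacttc
Magel2: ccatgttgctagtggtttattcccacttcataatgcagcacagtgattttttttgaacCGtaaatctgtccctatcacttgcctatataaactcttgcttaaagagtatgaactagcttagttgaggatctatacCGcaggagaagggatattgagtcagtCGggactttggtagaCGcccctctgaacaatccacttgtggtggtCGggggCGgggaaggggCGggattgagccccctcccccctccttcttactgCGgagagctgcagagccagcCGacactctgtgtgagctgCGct
Mest: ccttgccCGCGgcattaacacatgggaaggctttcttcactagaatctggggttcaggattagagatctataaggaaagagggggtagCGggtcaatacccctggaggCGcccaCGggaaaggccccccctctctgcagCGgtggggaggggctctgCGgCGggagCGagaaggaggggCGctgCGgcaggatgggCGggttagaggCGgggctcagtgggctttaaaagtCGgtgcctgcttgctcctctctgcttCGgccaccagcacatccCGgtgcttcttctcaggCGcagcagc
Grb10: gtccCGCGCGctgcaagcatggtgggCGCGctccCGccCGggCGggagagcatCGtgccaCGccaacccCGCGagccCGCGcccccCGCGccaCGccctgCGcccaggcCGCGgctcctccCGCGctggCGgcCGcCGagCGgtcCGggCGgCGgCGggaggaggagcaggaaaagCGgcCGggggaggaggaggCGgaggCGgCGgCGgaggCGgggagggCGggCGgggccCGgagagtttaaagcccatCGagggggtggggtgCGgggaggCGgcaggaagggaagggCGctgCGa
Igf2r: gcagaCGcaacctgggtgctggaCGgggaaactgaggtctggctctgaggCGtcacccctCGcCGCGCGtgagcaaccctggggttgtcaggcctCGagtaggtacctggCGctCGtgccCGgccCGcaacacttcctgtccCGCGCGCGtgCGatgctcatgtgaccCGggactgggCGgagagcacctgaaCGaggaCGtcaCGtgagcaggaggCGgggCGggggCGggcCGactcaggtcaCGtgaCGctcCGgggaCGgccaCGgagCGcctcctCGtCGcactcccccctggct

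Among the windows printed above, those of the maternally expressed genes that rose were denser in CG than those of the paternally expressed genes that fell. The Grb10 window held 45 CG dinucleotides and the Igf2r window 34, against 17 in the Mest window, 11 in that of Ndn and 10 in that of Magel2. Over all 32851 such windows the median was 7, and 98.1% of them held fewer than the Grb10 window and 58.6% fewer than the Ndn window. The printed windows are the densest of their genes, whereas the 32851 include the other windows of a gene too. The densest windows of Plagl1, Igf2, Peg3 and Dlk1, paternally expressed and not called, held 26, 24, 13 and 9. Other windows of Grb10 and Mest held 9 and 8, so the count and the order of the genes depend on the start chosen. These are descriptions of sequence, and no methylation was measured. A search of both strands for GGGGCCCC, a GC-rich element known to be bound by the PLAGL1 protein, found it in the windows of 1 member, Peg3, against 1.08% of all windows. The YY1-type word AANATGGC, carried by 6.05% of all windows, and the E2F-type word TTTCGCGC, carried by 0.323%, were in none of the 15 windows of the members. No match says only that these letters were not in these windows.

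Before the members, the arrays themselves need a description. L1cam, the transfected gene, read 6.50, 6.77 and 7.31 on the control arrays and 10.49, 10.60 and 10.73 on the L1CAM arrays (log2), so each array fell on the side of its label. L1CAM replicate 1 stood apart from the other L1CAM arrays: its values correlated with theirs at 0.9948 and 0.9951 across genes, while replicates 2 and 3 correlated at 0.9986 (across genes, which are not independent replicates). With control replicates 1, 2 and 3 it correlated at 0.9952, 0.9935 and 0.9938, about as closely as with the other L1CAM arrays. L1CAM replicates 2 and 3 correlated with the control arrays at 0.9878 to 0.9903. The labelled cell type matched its markers, which does not exclude other cells in the cultures. All 10 endothelial markers, Pecam1, Cdh5 and Kdr among them, lay above the array medians, though Vwf, with means of 6.85 and 6.84, lay close to them. Their mean was 11.97 to 11.98 on the control arrays and 11.88 to 11.93 on the L1CAM arrays. Of the 10, 0 passed the limma test (1 at an unadjusted p under 0.05). In 7 of them all L1CAM arrays lay below all control arrays, against 16.0% of all genes, and the median difference was -0.07. Here and below, log2 values of a gene compare arrays with each other and do not rank one gene against another.

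Of the 9 members, 2 paternally expressed genes fell, Ndn and Mest, and 2 maternally expressed genes rose, Grb10 and Igf2r. Ndn was 7.67-fold lower in L1CAM cells, Mest 1.56-fold lower, Igf2r 1.40-fold higher and Grb10 1.24-fold higher. Igf2 was lower on all 3 L1CAM arrays, but it was not called once the test was adjusted for the number of genes. Magel2, Peg3, Dlk1 and Plagl1 had differences of at most 0.08 on the log2 scale. Thus 4 of 9 members passed limma's test at an adjusted p of 0.05, against 15.0% of all genes tested: 2 members were higher, against 6.85% of all genes, and 2 lower, against 8.19%. With L1CAM replicate 1 left out 5 of 9 passed, against 24.8% of all genes in that fit, and an ordinary linear model called 2 of 9, against 2.91%. The fits with another array left out called between 5.18% and 9.07% of all genes, and these shares are the background of the counts with an array left out below. In 5 of the 9 the L1CAM arrays did not overlap the control arrays, against 34.6% of all genes: 2 lay above the control arrays (18.6% of all genes) and 3 below them (16.0%). The members' median difference was 0.02, that of all genes was also 0.02, and the members' median absolute difference was 0.31 against 0.10 for all genes. The number of members is small, they were chosen with earlier results of these data known, and the shares are descriptions.

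**Figure D1:**
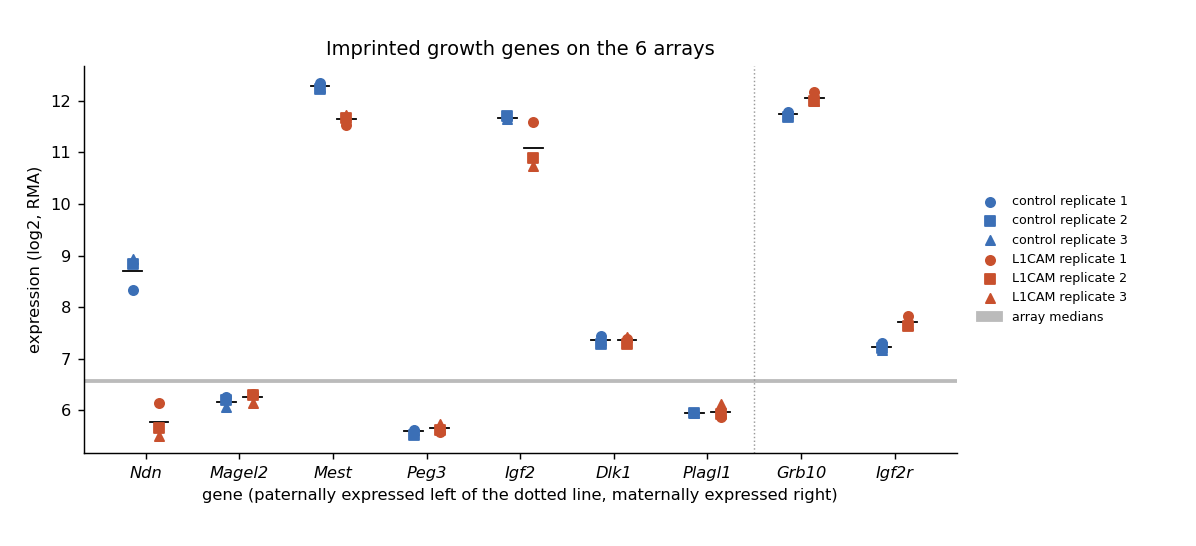
Log2 RMA expression (vertical axis) of the 9 measured members (horizontal axis) on each of the 6 arrays, with blue symbols for control and orange symbols for L1CAM arrays, a black bar for each group mean and a grey band for the array medians, 6.55 to 6.58. The 3 L1CAM arrays of Ndn lie below the grey band and its control arrays above it, and L1CAM replicate 1 of Igf2 lies with the control arrays.

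Ndn, coding for necdin, read 8.34, 8.83 and 8.94 in control replicates 1, 2 and 3 and 6.13, 5.65 and 5.51 in L1CAM replicates 1, 2 and 3 (log2). All L1CAM arrays were far below all control arrays, and L1CAM replicate 1 was the highest of them. The means were 8.70 ± 0.32 and 5.76 ± 0.33 (SD, n = 3 arrays per group), a difference of -2.94 (SE 0.20, 95% interval -3.40 to -2.48) with a limma adjusted p of 0.000311. Only 3 of the 19938 genes had a more negative difference, and 6 had a larger one in either direction. The L1CAM mean lay below the array medians, so Ndn was not shown to be above background in L1CAM cells and its fold is not exact. The call held whichever array was left out, with differences of -3.12 to -2.81. In such bulk RNA fewer cells with the transcript and less transcript per cell cannot be told apart, which holds for every gene below.

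Of 10 neuronal markers, given here because necdin is best known from neurons, 3 rose and 0 fell, against 6.85% of all genes higher and 8.19% lower: Stmn2, a regulator of microtubules, was 6.35-fold higher from a control mean below the array medians, and Elavl4, an RNA-binding protein, and Nefm, a neurofilament subunit, rose by 0.60 and 0.50. Nefl, another neurofilament subunit and well above the array medians, went the other way, from a mean of 11.73 to 11.48, a difference of -0.25. It did not pass the limma test (4 genes of the list were at an unadjusted p under 0.05, Nefl among them). The mean of this list was 6.30 to 6.32 on the control arrays and 6.69 to 6.71 on the L1CAM arrays. Stmn2 had the largest difference in it, 2.67, and the median difference of the list was 0.11. Of its genes 7 lay below the array medians in both groups, Elavl4 and Nefm among them, and also Rbfox3, Tubb3 and Snap25. Of 9 fibroblast markers 0 passed the limma test (2 at an unadjusted p under 0.05), with means of 6.18 to 6.22 and 6.19 to 6.23. Of 8 macrophage markers 0 passed, and 6 lay below the array medians in both groups, but not Cd68 (12.23 and 12.07) and Lyz2 (8.24 and 7.77). Of 10 lung epithelium markers 0 passed, and among 9 of smooth muscle and pericytes 1 rose. Among 9 preadipocyte and myoblast markers 0 rose and 2 fell, against the shares above: Fabp4 (-0.64, adjusted p = 0.0155) and Zfp423 (-0.20, adjusted p = 0.0433). These 2 passed in 2 and 1 of the 6 fits with an array left out.

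Magel2 lies next to Ndn on chromosome 7 and codes for a related MAGE protein that acts with a ubiquitin ligase in the sorting of endosomal cargo. It read 6.25, 6.19 and 6.06 on the control arrays and 6.32, 6.29 and 6.13 on the L1CAM arrays. The groups overlapped, and all 6 values lay below the array medians. The difference was 0.08 (95% interval -0.09 to 0.26, limma adjusted p = 0.54), but at values this close to background a fall may not be measurable.

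Of 10 other measured genes around Ndn and Magel2, 1 rose and 1 fell, against the 15.0% of all genes called. Mkrn3, an imprinted ubiquitin ligase gene, measured -0.04 (adjusted p = 0.78), and Peg12, another paternally expressed gene, 0.04 (adjusted p = 0.73). Atp10a, a phospholipid flippase expressed from the maternal copy in some tissues, rose by 0.49 (adjusted p = 0.0174), with 8.67 ± 0.11 in control and 9.17 ± 0.18 in L1CAM cells (SD, n = 3 arrays). Nipa1, a magnesium transporter at the non-imprinted end of the region, fell by 0.39 (adjusted p = 0.0104). The median difference of these neighbours was 0.01. In the fits without control replicate 2 and without control replicate 3, Ndn was the only gene of the region that passed. Snrpn, Snurf and Ube3a were not analysed here, since their probe sets carry several symbols.

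Mest, a membrane protein of the endoplasmic reticulum with the fold of a hydrolase, read 12.35, 12.24 and 12.27 on the control arrays and 11.53, 11.67 and 11.73 on the L1CAM arrays. All L1CAM arrays lay below all control arrays, by more than the spread within either group. The means were 12.28 ± 0.06 and 11.64 ± 0.10 (SD, n = 3 arrays per group), and the difference was -0.64 (SE 0.07, 95% interval -0.80 to -0.48, limma adjusted p = 0.00169). Mest was well above the array medians in both groups, and the call held whichever array was left out (-0.69 to -0.58). L1CAM replicate 1 had the lowest Mest value, whereas it had the highest Ndn value of the L1CAM arrays.

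Of 10 measured genes around Mest on chromosome 6, 1 fell and 0 rose, against the 15.0% of all genes called. This was Ube2h, a ubiquitin-conjugating enzyme, with -0.33 (adjusted p = 0.0105), a call lost without control replicate 2. Copg2, which overlaps the end of Mest on the opposite strand and codes for a coat protein of Golgi vesicles, measured -0.04 (95% interval -0.16 to 0.08, adjusted p = 0.66). Klf14, a maternally expressed transcription factor in some tissues, measured 0.05 (adjusted p = 0.62).

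Mest and Igf2 each carry a microRNA in an intron, and the precursors have probe sets of their own, which were added after the members' values were known. The mature forms are shown because the arrays bear on their host genes, with the seed, bases 2 to 8, in capitals (RefSeq, GRCm38.p6); no seeds are shared. The miR-335 forms lie at chr6:30741314-30741336 and chr6:30741354-30741375 on the plus strand, and the miR-483 forms at chr7:142654968-142654989 and chr7:142654932-142654952 on the minus strand.
mmu-miR-335-5p: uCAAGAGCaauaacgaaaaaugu
mmu-miR-335-3p: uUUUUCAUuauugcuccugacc
mmu-miR-483-5p: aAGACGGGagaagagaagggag
mmu-miR-483-3p: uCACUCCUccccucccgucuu
The Mir335 probe set read 5.02, 5.39 and 5.31 on the control and 4.93, 4.86 and 5.33 on the L1CAM arrays, a difference of -0.20 (95% interval -0.53 to 0.13, limma adjusted p = 0.41). The groups overlapped and every value lay below the array medians. The Mir483 probe set measured 7.53 ± 0.12 and 7.48 ± 0.13 (SD, n = 3 arrays), a difference of -0.04 (limma adjusted p = 0.79). The arrays read labelled long RNA, so these values say nothing on the mature microRNAs.

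**Figure D2:**
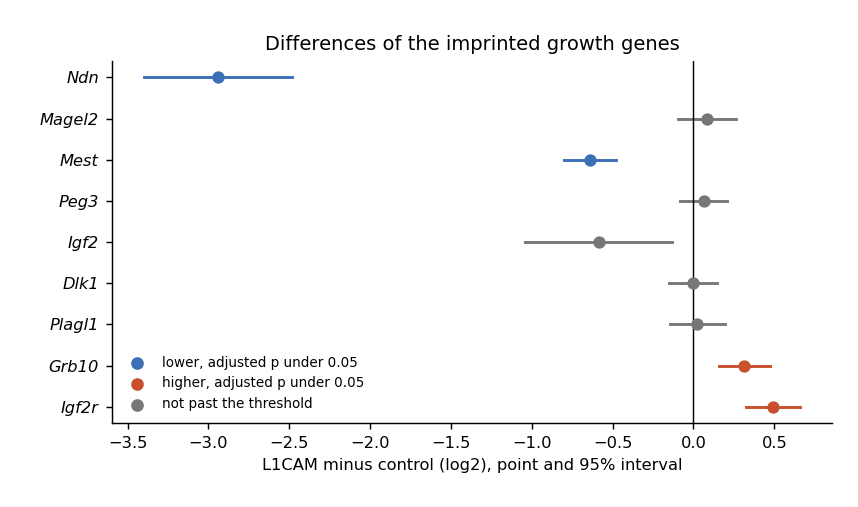
Difference of L1CAM minus control (horizontal axis, log2) for each member (vertical axis), as the limma estimate with its 95% interval, coloured by call. Ndn lies at -2.94 and Mest at -0.64, Grb10 and Igf2r lie above 0, and the interval of Igf2, -1.04 to -0.13, is the widest after that of Ndn.

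Igf2, the fetal growth factor, read 11.65, 11.70 and 11.65 on the control arrays and 11.59, 10.90 and 10.74 in L1CAM replicates 1, 2 and 3. Replicate 1 was 0.07 below the control mean, and replicates 2 and 3 were 0.76 and 0.92 below it. The means were 11.67 ± 0.03 and 11.08 ± 0.45 (SD, n = 3 arrays per group). The difference of -0.59 (SE 0.19, 95% interval -1.04 to -0.13) did not pass, with a limma adjusted p of 0.0857. Without L1CAM replicate 1 it was -0.84 with an adjusted p of 7.88e-05, and with limma array weights -0.79 with 0.0025. L1CAM replicate 1 also stood apart from replicates 2 and 3 in the cell division genes: the mean of 14 proliferation genes deviated from its control mean by -0.47 in L1CAM replicate 1 and by -1.73 and -1.63 in replicates 2 and 3. Their part in the Igf2 values was not tested. Of 18 measured genes around Igf2, 0 passed the limma test (1 at an unadjusted p under 0.05), with differences from -0.08 (Lsp1) to 0.22 (Mrpl23). The smallest p-values were those of Mrpl23, a mitochondrial ribosomal protein (adjusted p = 0.10), and Cd81, a tetraspanin (0.09, adjusted p = 0.34). The genes around Igf2 include Cdkn1c, an imprinted inhibitor of cyclin-dependent kinases, with 0.02 (adjusted p = 0.91), and Ins2 with 0.005 (adjusted p = 0.97).

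Igf2r, the receptor that carries IGF2 and mannose-6-phosphate-tagged enzymes to lysosomes, read 7.29, 7.20 and 7.17 on the control arrays and 7.83, 7.64 and 7.66 on the L1CAM arrays. The groups did not overlap. The means were 7.22 ± 0.06 and 7.71 ± 0.11 (SD, n = 3 arrays per group), and the difference was 0.49 (SE 0.07, 95% interval 0.32 to 0.66, limma adjusted p = 0.00517). It passed whichever array was left out (0.43 to 0.53), and an ordinary linear model gave an adjusted p of 0.0597. Airn, the paternally expressed antisense RNA that overlaps Igf2r, measured -0.06 (adjusted p = 0.51) and lay below the array medians on all arrays. Of 11 genes around Igf2r 1 fell, Mrpl18, a mitochondrial ribosomal protein (-0.50, adjusted p = 0.0447), which passed in 1 of the 6 fits with an array left out, and 0 rose.

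Grb10, the adaptor that dampens insulin and IGF1 receptor signalling, read 11.78, 11.68 and 11.76 on the control arrays and 12.17, 11.99 and 12.00 on the L1CAM arrays. The groups did not overlap, and L1CAM replicate 1 was the highest array. The means were 11.74 ± 0.05 and 12.05 ± 0.10 (SD, n = 3 arrays per group), and the difference was 0.31 (SE 0.07, 95% interval 0.16 to 0.47, limma adjusted p = 0.0219). It lost the call without control replicate 1 (adjusted p = 0.0536), control replicate 2 (0.0938), control replicate 3 (0.0763) or L1CAM replicate 3 (0.0569), and kept it without L1CAM replicate 1 (0.26, adjusted p = 0.0150). Of 7 genes around Grb10 0 passed the limma test (1 at an unadjusted p under 0.05). The largest difference there was -1.04 (adjusted p = 0.0588) for Fignl1, a DNA repair ATPase, which read 8.93 in L1CAM replicate 1 and 7.68 and 7.76 in replicates 2 and 3. The next smallest p was that of Zpbp, a sperm protein (-0.12, adjusted p = 0.37).

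**Figure D3:**
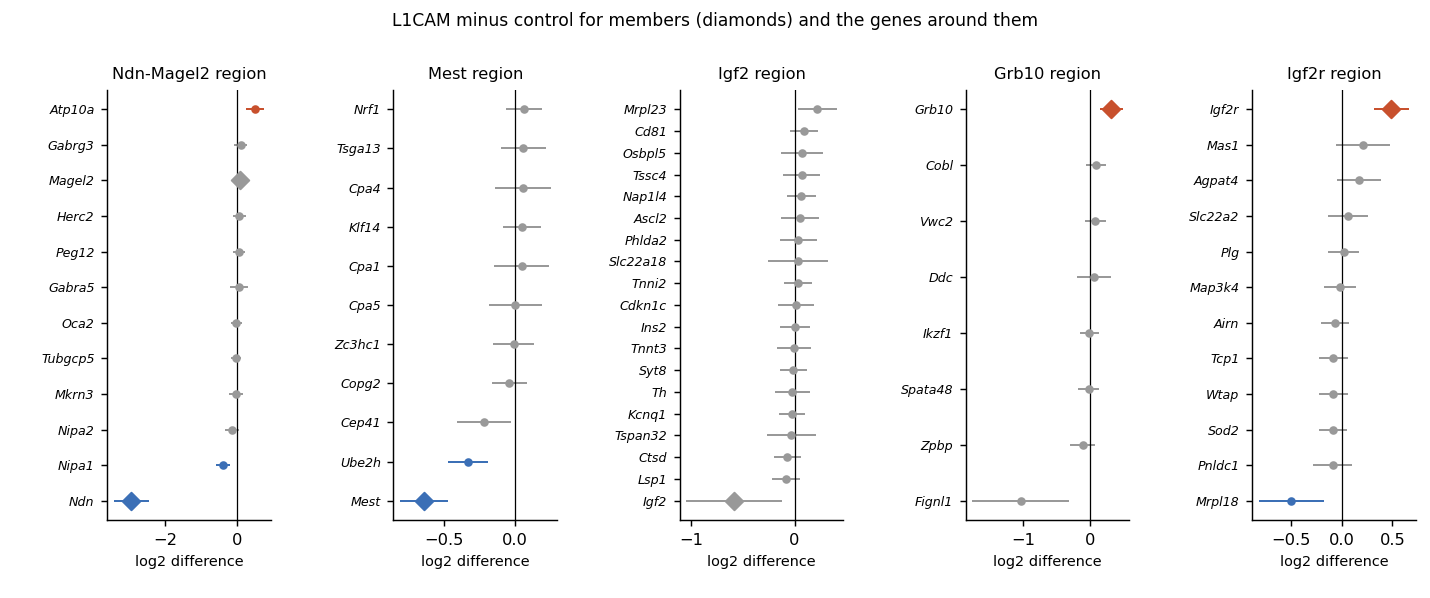
L1CAM minus control (horizontal axes, log2, each panel with its own scale) with 95% intervals for genes around 5 members, ordered by value within each region, with members as diamonds and blue or orange for genes called lower or higher. Ndn, Mest, Grb10 and Igf2r stand at the end of their panels, and most other genes lie near 0.

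Dlk1, a transmembrane protein of the Notch ligand kind that marks preadipocytes, read 7.44, 7.29 and 7.36 on the control and 7.37, 7.29 and 7.41 on the L1CAM arrays. The difference was -0.00 (95% interval -0.15 to 0.14, limma adjusted p = 0.98), and its sign was positive with the values quantile-normalized again. Peg3, a zinc-finger protein linked to apoptosis and growth, measured 5.59 ± 0.06 and 5.65 ± 0.08 (SD, n = 3 arrays), with a difference of 0.06 (95% interval -0.09 to 0.21, limma adjusted p = 0.59). Plagl1, a zinc-finger transcription factor that regulates other imprinted genes, measured 5.95 ± 0.0012 and 5.97 ± 0.13 (SD, n = 3 arrays), with a difference of 0.02 (95% interval -0.14 to 0.19, limma adjusted p = 0.87). The groups overlapped for all 3 of these genes. Peg3 and Plagl1 lay below the array medians on all 6 arrays, so a change in them may not be measurable, whereas Dlk1 lay above on all 6.

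Nearness is the root mean square difference of 2 profiles over the 6 arrays after centring each gene on its mean. The nearest to Ndn were Mbnl3, a splicing regulator (0.10), Mdga2, a membrane-anchored immunoglobulin-domain protein (0.27), and Aplnr, the apelin receptor (0.29), with differences of -2.84, -3.40 and -2.63. The nearest to Mest were Etnk1 (0.05), an ethanolamine kinase that is also on chromosome 6, Smox (0.05), a polyamine oxidase, and Pkp2 (0.06), a desmosomal protein. The nearest to Grb10 were Efnb1 (0.02), an ephrin ligand, Mfhas1 (0.02) and Atg10 (0.03), an autophagy enzyme. The nearest to Igf2r were Dlg2 (0.02), Ebag9 (0.04) and Usp13 (0.05), a deubiquitinase. None of these 12 was a member or another gene of the imprinted lists. Those are only 9 and 43 of the 19938 genes tested, so the lack of a match says little about them.

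Other imprinted genes mostly did not pass. Of 52 further imprinted genes 43 were measured, and 4 rose and 2 fell, together 6 of 43 against the 15.0% of all genes. Their median difference was 0.04. These genes were listed by the parental copy known to be active in some tissue, and which copy was active in these cells was not measured. Of 17 genes listed as paternally expressed 2 fell and 2 rose. Sfmbt2, a Polycomb-associated protein, was 2.67-fold lower, from 6.77 ± 0.19 to 5.36 ± 0.25 (SD, n = 3 arrays, limma adjusted p = 0.00119), and its L1CAM mean lay below the array medians. Sgce, a sarcoglycan, fell by 0.28 (adjusted p = 0.0352), while Mcts2, a translation factor gene, and Impact, a regulator of the amino acid sensor GCN2, rose by 0.46 (adjusted p = 0.0214) and 0.38 (adjusted p = 0.0217). Of 26 genes listed as maternally expressed 2 rose and 0 fell: Atp10a and Ano1, a calcium-activated chloride channel, which was 2.26-fold higher (7.30 ± 0.08 to 8.48 ± 0.24, SD, n = 3 arrays, limma adjusted p = 0.00122). Of these 6 genes, Sfmbt2 and Ano1 passed in all 6 fits with an array left out. The paternal list had 4 called genes when L1CAM replicate 1 was left out, 3 when control replicate 1 was, and 1 with any other array left out. The maternal list had 2 without L1CAM replicate 1 and 1 without any other. Meg3 and Rian, non-coding RNAs of the Dlk1 cluster, measured 0.07 (adjusted p = 0.48) and -0.03 (adjusted p = 0.92).

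Of 11 measured relatives of the members that are not imprinted, 3 fell and 0 rose, against 8.19% of all genes lower and 6.85% higher. Plag1, the paralog of Plagl1 and an activator of Igf2 transcription, was 1.98-fold lower (6.96 ± 0.03 to 5.98 ± 0.26, SD, n = 3 arrays, limma adjusted p = 0.00258), its L1CAM mean below the array medians. The MAGE genes Maged2 and Maged1, both on chromosome X, fell by 0.43 (adjusted p = 0.0109) and 0.42 (adjusted p = 0.0203). Nsmce3, the closest MAGE relative of Ndn in sequence and a subunit of the SMC5/6 complex, measured 0.12 (adjusted p = 0.21). Plag1 and Maged2 passed whichever array was left out, and Maged1 passed in 1 of these 6 fits. With an array left out, 4 genes of this list passed without L1CAM replicate 1, where 24.8% of all genes did, and 2 without any other array.

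In the IGF system around Igf2, Igf2r and Grb10, 3 of 14 measured genes rose and 1 fell, against 6.85% of all genes higher and 8.19% lower. Igfbp3, a binding protein that carries IGFs, rose 2.02-fold (11.54 ± 0.06 to 12.55 ± 0.02, SD, n = 3 arrays, limma adjusted p = 0.000154). Igfbp4, another binding protein, was 3.64-fold lower (11.46 ± 0.11 to 9.59 ± 0.33, SD, n = 3 arrays, limma adjusted p = 0.000553). Both passed whichever array was left out. Igf1, the ligand related to IGF2, rose by 0.87 (adjusted p = 0.0341), and Igf1r, the signalling receptor, by 0.28 (adjusted p = 0.0335), and these passed in 2 and 1 of the 6 fits with an array left out. Insr, the insulin receptor, measured -0.30 (adjusted p = 0.11). The list had 5 called genes when L1CAM replicate 1 was left out, 3 when control replicate 1 was, and 2 with any other array left out.

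Genes that set or keep imprints and DNA methylation are the next group. Of 20 measured genes 5 fell and 0 rose, against 8.19% of all genes lower and 6.85% higher. Uhrf1, which brings the maintenance methyltransferase to newly copied DNA, was 2.33-fold lower (9.44 ± 0.11 to 8.22 ± 0.70, SD, n = 3 arrays, limma adjusted p = 0.0336), and Dnmt1, that methyltransferase, 2.10-fold lower (9.94 ± 0.10 to 8.87 ± 0.62, SD, n = 3 arrays, limma adjusted p = 0.0350). Dnmt1 read 9.58 in L1CAM replicate 1 and 8.54 and 8.49 in replicates 2 and 3, so that replicate 1 lay nearest to the control arrays, as in the mean of the proliferation genes, of which 13 of 14 fell. Each of these 13 proliferation genes passed in only 1 or 2 of the 6 fits with an array left out. The part of proliferation in the values of the imprint and methylation genes was not tested. Dnmt3a, a de novo methyltransferase, fell by 0.41 (adjusted p = 0.0252), and Ehmt2, a histone H3 lysine methyltransferase, by 0.37 (adjusted p = 0.0191). Zfp57, the zinc-finger protein that protects imprints, measured 0.11 (adjusted p = 0.47), and its partner Trim28 -0.08 (adjusted p = 0.38). The count was 6 when L1CAM replicate 1 was left out, 1 when control replicate 1 was, and 0 when any of the other 4 arrays was, against 24.8%, 9.07% and 5.18% to 6.85% of all genes in those fits.

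**Figure D4:**
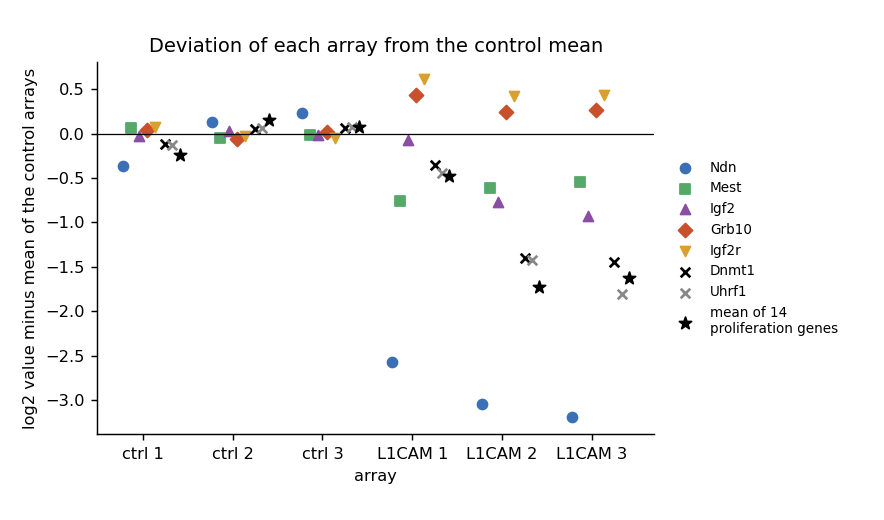
Log2 value minus the mean of the control arrays (vertical axis) on each array (horizontal axis) for 5 members, for Dnmt1 and Uhrf1, and for the mean of 14 proliferation genes (stars). In L1CAM replicate 1, Igf2 lies near the control arrays while Ndn and Mest lie below and Igf2r above them, and the proliferation mean is at -0.47, against -1.73 and -1.63 in replicates 2 and 3.

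Among 19 measured partners and targets of the members 1 rose and 1 fell, against the 15.0% of all genes called. Lrp6, a Wnt co-receptor known to be affected by MEST, fell by 0.38 (95% interval -0.51 to -0.25, limma adjusted p = 0.00553), also whichever array was left out. E2f4, of the E2F family, rose by 0.28 (adjusted p = 0.0392), and passed in 1 of these 6 fits. E2f1, an E2F protein that necdin binds, measured -0.49 (adjusted p = 0.13), with 9.29 in L1CAM replicate 1 and 8.65 and 8.56 in replicates 2 and 3. Trim27 and Usp7, the ubiquitin ligase and deubiquitinase that work with MAGEL2, measured 0.05 (adjusted p = 0.58) and -0.05 (adjusted p = 0.62). Notch1, a receptor whose signalling DLK1 can dampen, measured -0.15 (adjusted p = 0.14). Ctsd and Ctsl, lysosomal enzymes sorted by mannose-6-phosphate receptors, measured -0.07 (adjusted p = 0.45) and 0.03 (adjusted p = 0.77). The count was 4 without L1CAM replicate 1 and 1 without any other array.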

How the data were processed

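The deposited values are log2 expression per probe set, which the authors made with RMA (Expression Console 1.1), per the submitters' processing notes; other settings and the array's genome build: not given in the sources used here. RMA normalizes between arrays and makes no detection call, so dim genes were tested too.

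Of 35512 probe sets, 21789 had 1 gene symbol in the platform annotation, 1621 several, and 12102 were not listed. Each gene was read from its probe set of highest mean over the arrays. Symbols were checked against RefSeq through Entrez identifiers, and 0 changed. L1CAM minus control was fitted by group alone with limma 3.58.1 (lmFit, eBayes; R 4.3.3), two-sided, with Benjamini-Hochberg adjustment over 19938 genes at 0.05. SE is moderated, and each adjusted p without another name is from this fit. The script was tested on simulated data. Python 3.11.15 with pandas 2.3.3 made the tables. With 3 arrays per group, p-values measure the spread between these cultures.

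Members and lists were chosen with earlier results of these data known. The rule for names was all members, the 3 nearest profiles of each called member and, per related list, up to 4 called genes in each direction or, where none passed, the 2 of smallest p. Other genes were named after their values were seen. Alternatives were repeated quantile normalization, medians centred, dim genes left out (under the median on over 3 arrays), means of probe sets or all of them, trended, robust or no variance prior, weighted arrays, the replicate block and each array left out. H19 was not analysed.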

Additional observations from a re-analysis of the deposited data

How the results depend on the processing

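The direction of Ndn, Mest, Igf2, Grb10 and Igf2r was the same in all 16 alternatives, and Ndn and Mest were called in all of them. For these genes the dim filter, the choices of probe sets, the variance priors and the replicate block could change only the p-values. Their direction could differ only with repeated normalization, centred medians, array weights or an array left out. Ndn passed the dim filter through its control arrays alone, so its call there is no further support. Ndn ranged from -3.12 to -2.81 with an array left out. Grb10 lost its call with an ordinary linear model (adjusted p = 0.0934), as did Igf2r (0.0597). That model called 581 genes, 2 members and 4 genes of the related lists, against 2999, 4 and 20 in the reported fit. Array weights called 5191 genes. With an array left out, the counts ranged from 1033 to 4952 genes, 3 to 5 members and 7 to 25 genes of the related lists. Dlk1 changed sign with repeated quantile normalization (0.028) and array weights (0.014), and ranged from -0.041 to 0.034 with an array left out. Plagl1 ranged from -0.049 to 0.073. The cause of these changes was not tested. The filter on dim probe sets left Magel2, Peg3 and Plagl1 untested. Equal replicate numbers did not mark arrays that deviate together (correlations of -0.10, -0.10 and -0.03 for replicates 1, 2 and 3, and no array correlated best with its own number). With the replicate block 2067 genes, 4 members and 15 genes of the related lists were called, and Ndn measured -2.94 (limma adjusted p = 0.00427). Signal near background limits Ndn in L1CAM cells and Magel2, Peg3 and Plagl1 in both groups.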

Other observations

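Over the regions of all 8 loci, 4 of 86 measured neighbours of the members rose and 9 fell, together 13 of 86 against the 15.0% of all genes called, with a median difference of 0.00. The called genes around 3 members that did not pass are given as values. Around Dlk1 on chromosome 12, 1 of 13 measured neighbours rose and 2 fell. Wars, the cytosolic tryptophanyl-tRNA synthetase, rose by 0.63 (11.31 ± 0.04 to 11.93 ± 0.19, SD, n = 3 arrays, limma adjusted p = 0.00645), Evl, an actin regulator, fell by 0.52 (adjusted p = 0.00483) and Ppp2r5c, a regulatory subunit of protein phosphatase 2A, by 0.24 (adjusted p = 0.0210). Around Peg3 on chromosome 7, Zfp787 rose by 0.44 (adjusted p = 0.00624) and Zfp667, a zinc-finger gene, fell by 0.70 (adjusted p = 0.00277), while Usp29, which shares its promoter region with Peg3, measured -0.03 (adjusted p = 0.76). Around Plagl1 on chromosome 10, 3 of 9 neighbours fell: Utrn, coding for utrophin (-0.36, adjusted p = 0.0101), Stx11, a syntaxin (-0.31), and Phactr2, a regulator of protein phosphatase 1 (-0.28). Another rose, Ltv1, a ribosome assembly factor (0.49, adjusted p = 0.0199). Wars, Evl, Zfp787 and Zfp667 passed whichever array was left out. Ppp2r5c, Stx11 and Phactr2 passed in 1, Utrn in 5 and Ltv1 in 2 of the 6 fits with an array left out.

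Interferon response genes, a list with no imprinted gene, rose in 8 of 9 measured members, against 6.85% of all genes higher, and Ifit1 was 5.45-fold higher (limma adjusted p = 0.000376). These 8 passed in all 6 fits with an array left out.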
